A study of Mus musculus with 10 samples.

Results

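The dermis of mouse skin holds innate lymphoid cells (ILCs), tissue lymphocytes without rearranged antigen receptors, that were sorted here into CCR6+ and Sca1+ populations and compared gene by gene. The comparison takes the 4 dermal libraries, 2 labelled CCR6+ and 2 labelled Sca1+ in their titles, out of 10 libraries in all. The other libraries hold ILCs of the flanking skin layers, 3 epidermal and 3 subcutaneous, and served for the estimate of the spread and as a setting for the dermal values. All cells came from skin of adult B6 mice without a labelled treatment or mutation, and RNA was isolated on columns and turned into libraries with a low-input cDNA kit and Nextera XT. For replicate 2 of both dermal populations the marker stands in the title alone. The labels do not say how the cells were gated beyond the marker, how many cells or mice entered a library, or whether the 2 replicates of a population came from separate mice. The p-values thus reflect how far these particular libraries vary, a variation that can be purely technical.

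ILCs of type 2 respond to epithelial alarm signals such as IL-33, depend on the transcription factor GATA3 and secrete IL-5, IL-13 and growth factors that act on eosinophils and on tissue repair. ILCs of type 3 make IL-17 and IL-22. CCR6 is a chemokine receptor for CCL20 that is found on many type 3 ILCs and Th17 cells, and Sca1, the product of Ly6a, is a small surface protein anchored by a lipid that is often used to sort type 2 ILCs.

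Totals of the deposited expected counts were 15860496 and 15603232 in the CCR6+ libraries and 16409734 and 11627222 in the Sca1+ libraries, and the 10 libraries ranged from 11627222 to 18118544. CCR6+ replicate 2 had 14983 genes with a count, against 16686 to 17007 in the other 3 dermal libraries. Mitochondrial transcripts took 3.54% and 1.61% of the counts in CCR6+ ILCs and 3.47% and 2.27% in Sca1+ ILCs. Replicates of a population varied beyond the noise of counting (chi-square over its degrees of freedom 58.8 for CCR6+ and 44.8 for Sca1+), so each library was counted once. Across genes, which do not count as replicates, Spearman's rho was 0.934 between the CCR6+ replicates, 0.927 between the Sca1+ replicates and 0.899 to 0.926 between libraries of different populations.

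The genes of both sort markers went with the labels. The level of Ccr6 (ENSMUSG00000040899.13, chromosome 17, 8236043 to 8257141, mm10) was 768 and 919 TPM in CCR6+ ILCs and 41.8 and 104 TPM in Sca1+ ILCs. Ly6a (ENSMUSG00000075602.10, chromosome 15, 74994877 to 74998031, mm10) was at 436 and 214 TPM in CCR6+ ILCs and 2907 and 3064 TPM in Sca1+ ILCs. These genes encode the proteins used for sorting, so their separation checks the labels and is no finding. Ly6a was called (log2 fold change -3.16 ± 0.39, ± SE, edgeR adjusted p = 0.00512), whereas Ccr6 was not called (log2 fold change 3.55 ± 1.54, edgeR adjusted p = 0.442), although its 2 groups did not overlap. General ILC genes were present in all 4 libraries. Il7r, the receptor gene for the survival cytokine IL-7, was at 207 and 219 TPM in CCR6+ ILCs and 209 and 247 TPM in Sca1+ ILCs. Id2, a transcriptional regulator that all ILCs need, was at 2113 and 2140.3 TPM in CCR6+ ILCs and 2586 and 2321 TPM in Sca1+ ILCs. Thy1, a surface glycoprotein of lymphocytes, was at 181 and 187 TPM in CCR6+ ILCs and 120.3 and 101 TPM in Sca1+ ILCs. Genes of the T cell receptor complex were detected too. Cd3g was at 704 and 633 TPM in CCR6+ ILCs and 307 and 203 TPM in Sca1+ ILCs. Trbc2 was at 669 and 781 TPM in CCR6+ ILCs and 647 and 705 TPM in Sca1+ ILCs. Cd3e was at 79.1 and 23.6 TPM in CCR6+ ILCs and 25.3 and 9.4 TPM in Sca1+ ILCs. Cd4 and Cd8a stayed at or below 4.02 TPM in each of the 4 libraries. None of these 8 genes was called by edgeR between the populations. Cd3g was called higher in CCR6+ ILCs by DESeq2 (adjusted p = 0.0105) and by limma on log2(TPM + 0.1) and log2(TPM + 1) (0.0407 and 0.0311), and the part of T cells in the dermal results was not tested.

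A called gene is one with a Benjamini-Hochberg adjusted p under 0.05 in edgeR's quasi-likelihood test, fitted to all 10 libraries at once. Of 16208 genes tested, 104 were called between the dermal populations, or 0.642%, with 48 higher in CCR6+ than in Sca1+ ILCs (0.296% of genes) and 56 lower (0.346%). At an unadjusted p under 0.05 the number was 1763, or 10.9%. The median log2 fold change over all genes tested was -0.01, and both libraries of one population stood above both of the other in TPM for 6326 genes, or 39%, with 2973 higher in CCR6+ ILCs (18.3%) and 3353 lower (20.7%). In bulk RNA, fewer cells that make a transcript and less of it per cell cannot be told apart, and this holds for every difference given here.

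Single libraries moved these counts. Without CCR6+ replicate 2, 17 genes were called higher and 18 lower, without Sca1+ replicate 1 the counts were 15 and 28, and without Sca1+ replicate 2 they were 26 and 25. Without CCR6+ replicate 1 they were 38 and 117. A total of 25 of the 104 genes kept their call in each of the 10 fits that left out 1 library, and 35 kept it when only the 4 dermal libraries were fitted, with 16 in both sets. Those 16 were Asic3, Krt83, Pmepa1, Rnf208, Susd2 and Tmem154 on the higher side, and Arg1, Ccdc184, Cd200r1, Hs3st1, Il2ra, Itga4, Klrg1, Plscr1, Serpinb1a and Slc7a8 on the lower side.

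**Figure D1:**
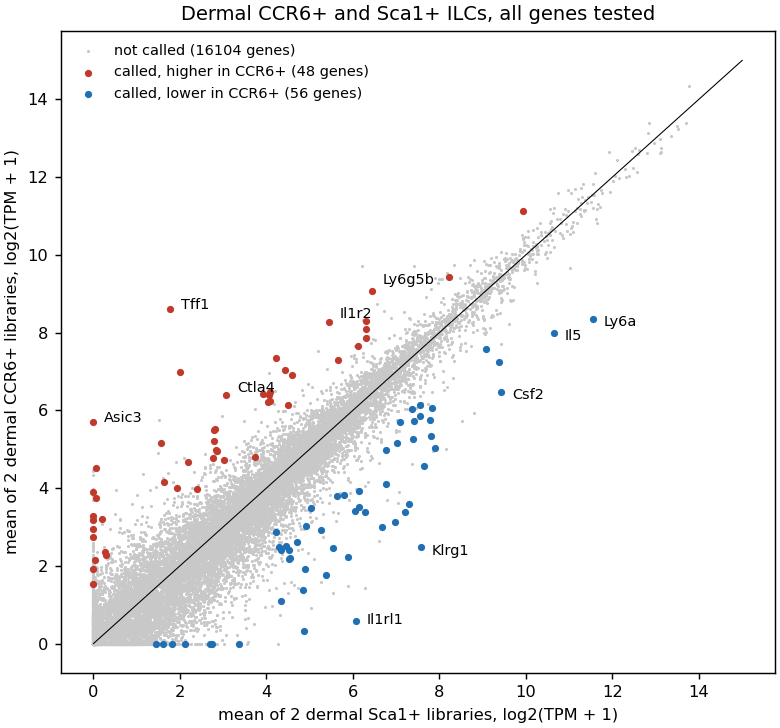
Mean level of each gene tested in the 2 dermal CCR6+ libraries (vertical axis) against the 2 dermal Sca1+ libraries (horizontal axis), both as log2(TPM + 1). Red points are the 48 genes called higher and blue points the 56 called lower in CCR6+ ILCs, grey points were not called, and the line marks equal levels.

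Genes of the type 2 list had more calls lower than higher in CCR6+ ILCs, and most of its members were not called. Of 29 measured genes of the type 2 list, 8 were called lower by edgeR (Il1rl1, Nmur1, Il2ra, Klrg1, Cd200r1, Il5, Csf2 and Arg1) and 1 higher (Vipr2), and the list's median log2 fold change was -0.61. Over all genes tested, 0.346% were called lower and 0.296% higher. Both CCR6+ libraries were below both Sca1+ libraries for 17 of the 29 type 2 genes and above them for 6, against 20.7% and 18.3% of all genes tested. Without CCR6+ replicate 2 or without Sca1+ replicate 1, 5 were called lower.

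Among receptors, Il1rl1 (ENSMUSG00000026069.15, chromosome 1, 40429570 to 40465415, mm10), the gene of the IL-33 receptor, was at 0.94 and 0.07 TPM in CCR6+ ILCs and 54.6 and 76.9 TPM in Sca1+ ILCs. Its level was near 0 in both CCR6+ libraries (log2 fold change -7.95 ± 1.45, edgeR adjusted p = 0.0419). Il2ra, the high-affinity subunit of the IL-2 receptor, was at 38.9 and 35.9 TPM in CCR6+ ILCs and 153 and 179.8 TPM in Sca1+ ILCs, with all CCR6+ values below all Sca1+ values (log2 fold change -2.18 ± 0.21, edgeR adjusted p = 0.00228). Nmur1, which encodes the receptor by which type 2 ILCs sense the neuropeptide neuromedin U, was listed at 0 in both CCR6+ libraries and at 6.37 and 12.4 TPM in the Sca1+ libraries. With 0 counts in CCR6+ ILCs and 215 in Sca1+ ILCs, it was at least 80.4-fold lower (set against 3 counts for the whole group, edgeR adjusted p = 0.0413). Vipr2 (ENSMUSG00000011171.11, chromosome 12, 116077726 to 116146261, mm10), a receptor for vasoactive intestinal peptide, another neuropeptide, ran the other way and was at 8.28 and 19.5 TPM in CCR6+ ILCs and listed at 0 in both Sca1+ libraries. Its 1134 counts in CCR6+ ILCs and 0 in Sca1+ ILCs made it at least 337-fold higher (edgeR adjusted p = 0.00228). The calls of Il1rl1 and Nmur1 were lost in 7 and 8 of the 10 fits without 1 library, namely without any one dermal or subcutaneous library and, for Nmur1, epidermal replicate 1, with edgeR adjusted p of 0.0708 to 0.335 for Il1rl1 and 0.0567 to 0.23 for Nmur1 in the fits that lost them.

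Klrg1 (ENSMUSG00000030114.8, chromosome 6, 122270596 to 122282882, mm10), an inhibitory receptor found on activated type 2 ILCs, was at 3.68 and 5.42 TPM in CCR6+ ILCs and 177 and 202 TPM in Sca1+ ILCs. It had the smallest adjusted p of the 104 genes (log2 fold change -5.36 ± 0.36, edgeR adjusted p = 0.000446), and its call was kept without any one library. Cd200r1, the receptor for the inhibitory ligand CD200, was at 16.9 and 15.7 TPM in CCR6+ ILCs and 109.6 and 105 TPM in Sca1+ ILCs (log2 fold change -2.71 ± 0.28, edgeR adjusted p = 0.00228). Cd200r1 has close paralogs that can share reads.

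Among products of these cells, Il5 (ENSMUSG00000036117.2, chromosome 11, 53720794 to 53725106, mm10), the cytokine that sustains eosinophils, was at 235 and 269 TPM in CCR6+ ILCs and 1481 and 1723 TPM in Sca1+ ILCs. All CCR6+ values lay below all Sca1+ values, but Il5 was still well detected in CCR6+ ILCs (log2 fold change -2.65 ± 0.34, edgeR adjusted p = 0.00772). Csf2 (ENSMUSG00000018916.5, chromosome 11, 54247271 to 54249667, mm10), which encodes GM-CSF, was at 126 and 49.03 TPM in CCR6+ ILCs and 758 and 613 TPM in Sca1+ ILCs (log2 fold change -2.94 ± 0.40, edgeR adjusted p = 0.00948). Arg1, the arginine-degrading enzyme that type 2 ILCs carry, was at 9.37 and 9.43 TPM in CCR6+ ILCs and 63.9 and 89.01 TPM in Sca1+ ILCs (log2 fold change -2.999 ± 0.25, edgeR adjusted p = 0.0017). Without CCR6+ replicate 2 the edgeR adjusted p of Il5 was 0.0766, and without Sca1+ replicate 1 that of Csf2 was 0.0571. Il5 and Csf2 each overlap a predicted gene on the other strand, and the libraries do not mark strand.

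The remaining 20 type 2 genes missed edgeR's threshold. DESeq2 also called Areg, Ccl1 and Gata3 lower and Il17rb, Il9 and Tph1 higher (adjusted p of 0.000498 to 0.0456), and limma called Ccl1 lower on both scales (0.0165 and 0.0084) and Il9 higher on log2(TPM + 0.1) (0.0305). Ccl1, a chemokine gene, was at 51.4 and 11.1 TPM in CCR6+ ILCs and 312 and 252 TPM in Sca1+ ILCs (edgeR adjusted p = 0.115). Gata3 was at 422 and 496 TPM in CCR6+ ILCs and 848 and 828 TPM in Sca1+ ILCs (edgeR adjusted p = 0.163). Rora, a nuclear receptor needed for type 2 ILCs, was at 977 and 1104 TPM in CCR6+ ILCs and 1006 and 1276 TPM in Sca1+ ILCs (0.902). Areg, the gene of the repair factor amphiregulin, was at 299 and 294 TPM in CCR6+ ILCs and 838 and 714 TPM in Sca1+ ILCs (edgeR adjusted p = 0.238). For Gata3 and Areg both CCR6+ libraries were below both Sca1+ libraries, while Rora overlapped. Il13 was at 17.5 and 13.5 TPM in CCR6+ ILCs and 29.1 and 17.3 TPM in Sca1+ ILCs (0.625). Il17rb, a subunit of the IL-25 receptor, leaned the other way with 44.4 and 80.98 TPM in CCR6+ ILCs and 12.1 and 27.4 TPM in Sca1+ ILCs (edgeR adjusted p = 0.167). Il9 was at 3.19 and 35.2 TPM in the CCR6+ libraries and listed at 0 in both Sca1+ libraries (edgeR adjusted p = 0.155).

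**Figure D2:**
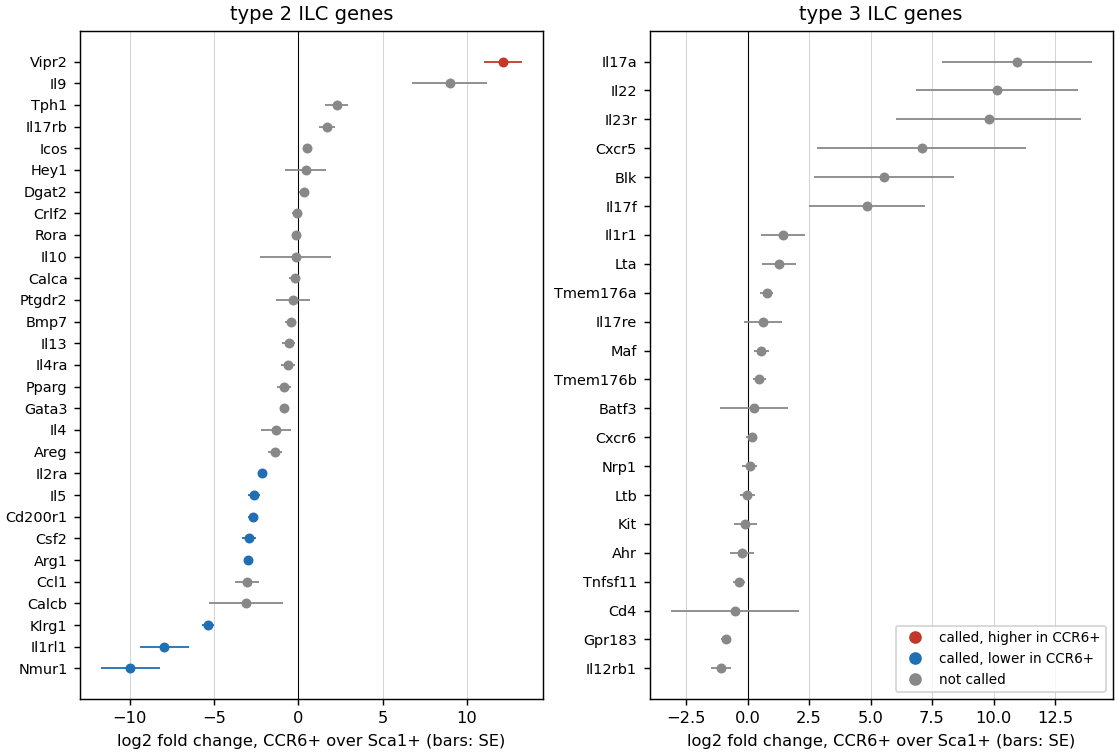
Log2 fold change of dermal CCR6+ over dermal Sca1+ ILCs for each measured gene of the type 2 list (left) and the type 3 list (right, 22 of 24, without 1 gene that has no count in the 4 dermal libraries and 1 not reported here), with bars for the SE. Red and blue points are genes called higher and lower in CCR6+ ILCs, 1 and 8 on the left and 0 on the right, and grey points were not called. The fitted fold of a gene with no count in one population depends on the model's prior count.

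No gene of the type 3 list was called by edgeR in the fit of all 10 libraries, of 24 measured, and the list's median log2 fold change was 0.52. Both CCR6+ libraries were above both Sca1+ libraries for 10 of the 24 genes and below them for 3, against 18.3% and 20.7% of all genes tested. At an unadjusted p under 0.05 edgeR had 5 genes higher and 2 lower, DESeq2 calls included Il17a, higher (adjusted p = 0.00137), and Gpr183, a receptor for oxysterols, lower (0.000157), and limma called Il17a alone on both log2(TPM + pseudocount) scales (0.0346 and 0.00851). Under other settings edgeR called 7 genes higher with no filter beyond 1 count, 1 in the fit of the 4 dermal libraries, 2 without subcutaneous replicate 2 and 1 without subcutaneous replicate 3. Il17a was at 19.9 and 22.1 TPM in the CCR6+ libraries and listed at 0 in both Sca1+ libraries, with an edgeR adjusted p of 0.218. Il17f was at 50.2 and 55.7 TPM in CCR6+ ILCs and 1.61 and 2.11 TPM in Sca1+ ILCs (0.482). Il22, a cytokine that acts on epithelium, was at 11.8 and 14.2 TPM in the CCR6+ libraries and listed at 0 in the others (0.308). Il23r, the receptor gene for the cytokine that induces them, was at 3.8 and 3.86 TPM in the CCR6+ libraries and at 0 in both Sca1+ libraries (0.393). For these 4 genes the replicates within CCR6+ ILCs lay close together, and the SE came from a fit in which all 4 groups share 1 estimate of the spread for a gene. The most abundant members differed little. Cxcr6, a chemokine receptor, was at 1865 and 2045 TPM in CCR6+ ILCs and 1749.9 and 1766 TPM in Sca1+ ILCs. Ltb, the gene of a lymphotoxin subunit, was at 292 and 402 TPM in CCR6+ ILCs and 327 and 378 TPM in Sca1+ ILCs.

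Of 34 measured lineage transcription factors none was called by edgeR, and their median log2 fold change was -0.0009. At an unadjusted p under 0.05, 4 were higher and 2 lower. Calls by DESeq2 included Runx2, Tcf7 and Tox2, higher (adjusted p of 0.00182 to 0.0157) and Gata3, lower (0.00459), while limma called Tox2 alone, on 1 of its scales (0.0467). With no filter beyond 1 count edgeR called 5 higher, and without subcutaneous replicate 3 it called 1. Tcf7, a regulator of early ILC and T cell development, was at 151 and 185 TPM in CCR6+ ILCs and 52.04 and 69.4 TPM in Sca1+ ILCs (edgeR adjusted p = 0.165). Tox2 was at 9.12 and 9.17 TPM in CCR6+ ILCs and 0.83 and 0 TPM in Sca1+ ILCs (0.188). Id2, Rora, Gata3 and Ikzf3 had the highest levels, and Ikzf3 was at 665 and 694 TPM in CCR6+ ILCs and 639.7 and 583 TPM in Sca1+ ILCs. Type 1 and NK cell genes had no call among 21 measured by edgeR, and none at an unadjusted p under 0.05, and DESeq2 called Il12rb2, an IL-12 receptor subunit gene, higher. With no filter beyond 1 count edgeR called 1 higher and 1 lower, and without subcutaneous replicate 2 it called 1 higher. The list had a median log2 fold change of -0.87, with 17 of 21 genes negative. Nkg7, a granule protein, was at 999.95 and 875 TPM in CCR6+ ILCs and 1089 and 718 TPM in Sca1+ ILCs.

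Secreted cytokines and chemokines were called lower in CCR6+ ILCs for 5 of 33 measured genes and higher for none by edgeR (4 at an unadjusted p under 0.05, 2 by DESeq2 and up to 2 by limma, with 5 by edgeR with no filter, 2 without subcutaneous replicate 2 and 1 in the dermal libraries alone), and the median log2 fold change was -0.90. Over all genes tested, edgeR called 0.346% lower and 0.296% higher. Besides Il5 and Csf2 the cytokine and chemokine genes called lower were Csf1, Lif and Cxcl2. Csf1, the growth factor of macrophages, was at 4.63 and 2.48 TPM in CCR6+ ILCs and 21.4 and 22.8 TPM in Sca1+ ILCs (log2 fold change -2.89 ± 0.30, edgeR adjusted p = 0.00228). Lif, a cytokine of the IL-6 family, was at 4.24 and 4.42 TPM in CCR6+ ILCs and 14.9 and 23.3 TPM in Sca1+ ILCs (log2 fold change -2.11 ± 0.35, edgeR adjusted p = 0.0248). Cxcl2, a neutrophil attractant, was at 42.7 and 36.9 TPM in CCR6+ ILCs and 218 and 225 TPM in Sca1+ ILCs (log2 fold change -2.45 ± 0.43, edgeR adjusted p = 0.0333). The 5 calls lower became 2 without CCR6+ replicate 2 or without Sca1+ replicate 1, and 3 without Sca1+ replicate 2. The call of Csf1 was kept without any one library, that of Lif was lost without any one dermal library (edgeR adjusted p of 0.0571 to 0.193), and that of Cxcl2 was lost without any one dermal or subcutaneous library (0.06 to 0.287). Csf1, Lif and Cxcl2 are made by many cells. The summed TPM of the 18 macrophage and dendritic cell genes was 2147 and 2549 in CCR6+ ILCs and 2382 and 5138 in Sca1+ ILCs, and its part in these genes was not tested.

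Among the TNF superfamily and costimulatory lists, Ctla4, Tnfsf8, Tnfrsf8 and Tnfrsf4 were called higher in CCR6+ ILCs. Ctla4 (ENSMUSG00000026011.13, chromosome 1, 60887000 to 60915832, mm10), the inhibitory receptor that competes with CD28, was at 58.9 and 106 TPM in CCR6+ ILCs and 7.14 and 7.67 TPM in Sca1+ ILCs. The CCR6+ levels were at least 7 times the Sca1+ levels in every pair of libraries (log2 fold change 3.48 ± 0.58, edgeR adjusted p = 0.0265). Tnfsf8 (ENSMUSG00000028362.2, chromosome 4, 63831308 to 63861347, mm10), the gene of CD30 ligand, was at 37.01 and 34.8 TPM in CCR6+ ILCs and 3.18 and 8.52 TPM in Sca1+ ILCs (log2 fold change 2.65 ± 0.43, edgeR adjusted p = 0.0217). Tnfrsf8, the gene of its receptor CD30, was at 7.22 and 9.18 TPM in CCR6+ ILCs and 0.02 and 0.28 TPM in Sca1+ ILCs (log2 fold change 5.94 ± 0.91, edgeR adjusted p = 0.0319). Tnfrsf4, the gene of OX40, was at 251 and 216 TPM in CCR6+ ILCs and 91.4 and 64.03 TPM in Sca1+ ILCs (log2 fold change 1.58 ± 0.29, edgeR adjusted p = 0.0401). In their lists, 1 of 17 TNF superfamily ligands and 2 of 18 TNF receptors were called by edgeR, all 3 higher in CCR6+ ILCs, with median log2 fold changes of -0.02 and 0.30. Over all genes tested, 0.296% were called higher. DESeq2 also called Cd70, the ligand of CD27, higher (adjusted p = 0.000154), as did limma on both scales (0.025 and 0.0144), and DESeq2 called Tnfrsf18, the gene of GITR, lower (0.00219). Of 20 costimulatory and inhibitory receptors, edgeR called 1 higher (Ctla4) and 2 lower (Klrg1 and Cd200r1), with a median of 0.43. Cd28 was at 30.99 and 32.2 TPM in CCR6+ ILCs and 88.3 and 69.1 TPM in Sca1+ ILCs, opposite to Ctla4, and missed the threshold (edgeR adjusted p = 0.0794). Icos, a costimulatory receptor, was at 2071 and 2631 TPM in CCR6+ ILCs and 1555 and 1668 TPM in Sca1+ ILCs (0.461).

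Calls in this group depended on single libraries. The call of Ctla4 was lost without CCR6+ replicate 2, either Sca1+ library or subcutaneous replicate 1 (edgeR adjusted p of 0.0524 to 0.164). That of Tnfsf8 was lost without either CCR6+ library or Sca1+ replicate 1 (0.0519 to 0.097), that of Tnfrsf8 without CCR6+ replicate 2, Sca1+ replicate 1 or any one epidermal library (0.0567 to 0.123), and that of Tnfrsf4 without any one dermal or subcutaneous library (0.0613 to 0.209).

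Cytokine receptors held 1 call higher and 2 lower by edgeR among 33 measured genes, with a median log2 fold change of -0.12. The higher one was Il1r2 (ENSMUSG00000026073.13, chromosome 1, 40074079 to 40125231, mm10), a decoy receptor that binds IL-1 without signalling, at 249 and 372 TPM in CCR6+ ILCs and 26.8 and 58.9 TPM in Sca1+ ILCs. CCR6+ libraries were above Sca1+ libraries by at least 4-fold (log2 fold change 2.92 ± 0.41, edgeR adjusted p = 0.011). The call was lost without CCR6+ replicate 2 (edgeR adjusted p = 0.0717) and without Sca1+ replicate 1 (0.0678). The signalling receptor gene Il1r1 was at 6.54 and 3.75 TPM in CCR6+ ILCs and 0.29 and 4.33 TPM in Sca1+ ILCs (edgeR adjusted p = 0.605). Il21r was at 173 and 193 TPM in CCR6+ ILCs and 38.6 and 32.8 TPM in Sca1+ ILCs. It came short of edgeR's threshold (0.0914), while DESeq2 called it higher (adjusted p = 0.000318). In this list DESeq2 called 4 genes higher and 3 lower, and limma 1 and 2 on each scale. At an unadjusted p under 0.05 edgeR had 6 higher and 6 lower, and with no filter beyond 1 count it called 5 and 5. Among shared subunits Il2rg was at 2269 and 2567 TPM in CCR6+ ILCs and 3416 and 3301 TPM in Sca1+ ILCs. Il2rb was at 814 and 930.2 TPM in CCR6+ ILCs and 571 and 499 TPM in Sca1+ ILCs.

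**Figure D3:**
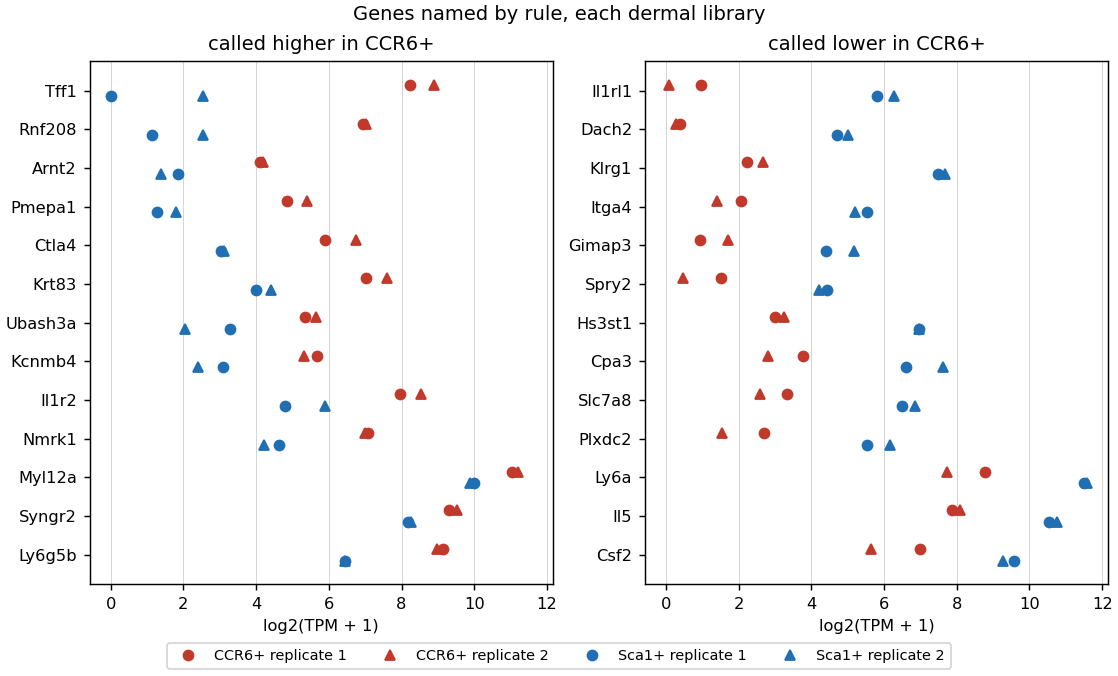
Level of the 26 genes named by rule in each of the 4 dermal libraries, as log2(TPM + 1), with genes called higher in CCR6+ ILCs on the left and lower on the right. Red marks are the CCR6+ and blue marks the Sca1+ libraries, and circles and triangles are replicates 1 and 2. Both groups stand apart for each gene, which the rule required.

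The gene called higher with the largest fold, among those with more than 3 counts in Sca1+ ILCs and a mean of at least 10 TPM in CCR6+ ILCs, was Tff1 (ENSMUSG00000024032.6, chromosome 17, 31161395 to 31165277, mm10), which encodes a secreted trefoil peptide of mucosal surfaces. Tff1 was at 301 and 476 TPM in CCR6+ ILCs and 0 and 4.87 TPM in Sca1+ ILCs. It was high in both CCR6+ libraries and at or near 0 in both Sca1+ libraries (log2 fold change 7.54 ± 0.87, edgeR adjusted p = 0.00378, given in this order for other genes too). Rnf208, a RING finger protein gene, was at 122 and 128 TPM in CCR6+ ILCs and 1.19 and 4.79 TPM in Sca1+ ILCs (5.49 ± 0.64, 0.00387). Arnt2, a bHLH-PAS transcription factor gene, was at 16.2 and 17.3 TPM in CCR6+ ILCs and 2.63 and 1.61 TPM in Sca1+ ILCs (4.60 ± 0.78, 0.0282). Both were low in both Sca1+ libraries. Pmepa1, an inhibitor of TGF-β signalling that TGF-β itself induces, was at 27.9 and 41.3 TPM in CCR6+ ILCs and 1.42 and 2.5 TPM in Sca1+ ILCs (log2 fold change 3.75 ± 0.41, edgeR adjusted p = 0.00279). The hair keratin gene Krt83 was at 129 and 192 TPM in CCR6+ ILCs and 15.03 and 20.4 TPM in Sca1+ ILCs (log2 fold change 3.21 ± 0.34, edgeR adjusted p = 0.00228). The 20 keratinocyte genes had a median of 0.12 and no call by edgeR, DESeq2 or limma, nor at an unadjusted p under 0.05. The 15 measured sebocyte and hair follicle genes had a median of -0.87 and no call by edgeR, DESeq2 or limma. The part of such cells in the level of Krt83 was not tested. Keratins are near-identical to each other in places and can share reads. Ubash3a, a suppressor of T cell receptor signalling and the only call by edgeR among 24 T cell genes (median 0.39), was at 39.4 and 49.1 TPM in CCR6+ ILCs and 8.71 and 3.09 TPM in Sca1+ ILCs (log2 fold change 3.06 ± 0.36, edgeR adjusted p = 0.00417). DESeq2 called 3 T cell genes higher (Ubash3a, Cd3g and Lck) and Cd28 lower. Also named were Kcnmb4, an auxiliary subunit of a potassium channel, and Nmrk1, an enzyme of NAD synthesis. Kcnmb4 was at 49.7 and 39.2 TPM in CCR6+ ILCs and 7.59 and 4.34 TPM in Sca1+ ILCs (2.95 ± 0.50, 0.0282). Nmrk1 was at 134 and 126 TPM in CCR6+ ILCs and 23.9 and 17.4 TPM in Sca1+ ILCs (2.74 ± 0.37, 0.00948). The most abundant of the other genes called higher were Myl12a, Syngr2 and Ly6g5b. Myl12a, a regulatory light chain of myosin, was at 2109 and 2377 TPM in CCR6+ ILCs and 1015 and 937 TPM in Sca1+ ILCs (1.20 ± 0.19, 0.0196). Syngr2, a vesicle membrane protein, was at 637 and 742 TPM in CCR6+ ILCs and 287 and 308 TPM in Sca1+ ILCs (1.23 ± 0.19, 0.0162). Ly6g5b, a Ly6 family gene, was at 558 and 504 TPM in CCR6+ ILCs and 86.7 and 85.8 TPM in Sca1+ ILCs (2.65 ± 0.36, 0.00948).

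Tff1, Rnf208, Pmepa1, Krt83 and Ubash3a kept their calls without any one library. Arnt2 (edgeR adjusted p of 0.0519 to 0.179) lost its call without any one dermal library and Kcnmb4 (0.051 to 0.174) without any one dermal library or subcutaneous replicate 3. Nmrk1 (0.0559 to 0.0922), Myl12a (0.0946 to 0.18) and Syngr2 (0.111 to 0.153) lost it without CCR6+ replicate 2 or either Sca1+ library, and Ly6g5b (0.0848 and 0.0906) without either Sca1+ library. Tff1, Rnf208, Arnt2, Myl12a, Syngr2 and Kcnmb4 overlap other annotated genes, whose reads cannot always be separated. The same holds for other called genes, among them Il1r2, Ctla4, Vipr2, Il2ra and Tmem154.

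Of the 48 genes called higher, 10 besides Vipr2 had no count or only 1 in Sca1+ ILCs, and the examples given were picked after their values were seen. Asic3, a proton-gated ion channel of sensory neurons, was at 37.7 and 64.5 TPM in CCR6+ ILCs and listed at 0 in both Sca1+ libraries, at least 483-fold higher (edgeR adjusted p = 0.0026). Colq, a collagen-like anchor of acetylcholinesterase, was at 7.16 and 6.32 TPM in CCR6+ ILCs and at 0 in Sca1+ ILCs, at least 137-fold higher (edgeR adjusted p = 0.0103). Apol9b was at 23.1 and 20.8 TPM in CCR6+ ILCs and 0 and 0.08 TPM in Sca1+ ILCs, a ratio of 657 from 737 counts against 1, with a 95% exact interval of 117 to 26000. Its near-identical copy Apol9a was at 4.55 and 11.5 TPM in CCR6+ ILCs and at 0 in Sca1+ ILCs, at least 74.8-fold higher (edgeR adjusted p = 0.0397). The call of Asic3 held without any one library, and that of Colq was lost without either Sca1+ library (edgeR adjusted p of 0.0545 and 0.0716). That of Apol9a was lost without CCR6+ replicate 2, either Sca1+ library or epidermal replicate 2 or 3 (0.0621 to 0.155). Floors and intervals cover counting error only.

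Among the genes called lower with more than 3 counts in CCR6+ ILCs and a mean of at least 10 TPM in Sca1+ ILCs, those with the largest folds beside Il1rl1 and Klrg1 were Dach2, a developmental transcription cofactor, and Itga4, the α4 integrin subunit that binds VCAM1. Dach2 was at 0.3 and 0.21 TPM in CCR6+ ILCs and 25.2 and 31.1 TPM in Sca1+ ILCs (log2 fold change -7.12 ± 0.97, edgeR adjusted p = 0.00948). Itga4 was at 3.16 and 1.64 TPM in CCR6+ ILCs and 45.1 and 35.5 TPM in Sca1+ ILCs (log2 fold change -4.83 ± 0.50, edgeR adjusted p = 0.00228) and was the only call by edgeR among 25 adhesion and tissue exit genes, whose median was -0.54. DESeq2 also called Cd69, Gpr183 and Itgb3 lower and Cd44 higher, and edgeR called 2 lower with RLE size factors, a stricter filter or robust dispersions. Gimap3, a GTPase of lymphocyte survival, was at 0.92 and 2.25 TPM in CCR6+ ILCs and 20.1 and 35.1 TPM in Sca1+ ILCs (-4.12 ± 0.71, 0.0307). A further pair of Gimap genes called lower was picked out after its values were seen, Gimap1 with 5.8 and 3.23 TPM in CCR6+ ILCs and 44.7 and 45.7 TPM in Sca1+ ILCs and Gimap6 with 11.5 and 7.63 TPM in CCR6+ ILCs and 56.3 and 74.9 TPM in Sca1+ ILCs. Spry2, an inhibitor of receptor tyrosine kinase signalling, was at 1.86 and 0.39 TPM in CCR6+ ILCs and 20.5 and 17.6 TPM in Sca1+ ILCs (-4.06 ± 0.67, 0.0265). Hs3st1, a heparan sulfate sulfotransferase, was at 7.03 and 8.47 TPM in CCR6+ ILCs and 123 and 125 TPM in Sca1+ ILCs (log2 fold change -3.98 ± 0.36, edgeR adjusted p = 0.00228). Slc7a8, an amino acid transporter, was at 9.05 and 5.01 TPM in CCR6+ ILCs and 89.1 and 114 TPM in Sca1+ ILCs (log2 fold change -3.83 ± 0.41, edgeR adjusted p = 0.00228). Plxdc2, a transmembrane plexin domain protein, was at 5.52 and 1.89 TPM in CCR6+ ILCs and 45.1 and 70.3 TPM in Sca1+ ILCs (log2 fold change -3.65 ± 0.43, edgeR adjusted p = 0.00406). The calls of Itga4, Hs3st1, Slc7a8 and Plxdc2 held without any one library, while Dach2 lost its call without CCR6+ replicate 2 (edgeR adjusted p = 0.116). Gimap3 (0.0593 to 0.145) lost it without any one dermal library or subcutaneous replicate 1 or 3, Spry2 (0.0512 to 0.0912) without CCR6+ replicate 2, either Sca1+ library or any one subcutaneous library, and Gimap1 (0.0552) without CCR6+ replicate 2. Itga4 overlaps Cerkl on the other strand, and Gimap genes are near-identical in places.

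Markers of other cells were also among the genes called lower. Cpa3, a carboxypeptidase of mast cell granules, was at 12.7 and 6.06 TPM in CCR6+ ILCs and 95.8 and 197 TPM in Sca1+ ILCs. It was the only call by edgeR among 8 measured mast cell and basophil genes (log2 fold change -3.92 ± 0.48, edgeR adjusted p = 0.00518), whose median was -2.85. DESeq2 also called Cma1 (adjusted p = 0.0221) and Hdc, the histamine-forming enzyme (0.00461), lower, and edgeR with no filter beyond 1 count called 6 of the list lower. The mast cell protease Mcpt4 was at 18.2 and 9.48 TPM in CCR6+ ILCs and 133 and 133 TPM in Sca1+ ILCs and missed the threshold (edgeR adjusted p = 0.368). Cma1, another one, was at 11.8 and 12.3 TPM in CCR6+ ILCs and 113 and 106 TPM in Sca1+ ILCs (0.314). Fcer1a, the gene of the IgE receptor's α chain, was at 0 in all 4 libraries. The sum of the list was 105 and 120.5 TPM in CCR6+ ILCs and 451 and 607 TPM in Sca1+ ILCs. Ighm, the heavy chain gene of IgM, was at 13.7 and 8.23 TPM in CCR6+ ILCs and 152 and 159 TPM in Sca1+ ILCs (log2 fold change -3.79 ± 0.69, edgeR adjusted p = 0.0401). The B cell genes Cd79a and Ms4a1 were at 0 in all 4 libraries. Of 7 measured B cell genes, 3 had a positive log2 fold change and only Ighm a negative one. Igkc, the κ light chain gene, was at 5 and 6.89 TPM in CCR6+ ILCs and listed at 0 in both Sca1+ libraries (edgeR adjusted p = 0.164). DESeq2 called Igkc higher (adjusted p = 0.0116), as did limma on log2(TPM + 0.1) (0.0185). The call of Cpa3 was lost without CCR6+ replicate 2 (edgeR adjusted p = 0.0552), and that of Ighm without any one dermal or subcutaneous library (0.0547 to 0.317).

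Marker lists of the other cells that skin holds showed no further call by edgeR in the fit of all 10 libraries. With no filter beyond 1 count edgeR called 9 macrophage, dendritic and Langerhans cell genes, 4 fibroblast genes and 2 endothelial genes lower and 1 fibroblast gene higher. Without CCR6+ replicate 1 it called 3 macrophage, dendritic and Langerhans cell genes and 1 fibroblast gene lower. At an unadjusted p under 0.05, 6 macrophage, dendritic and Langerhans cell genes were lower (1 by DESeq2, 0 by limma), 2 fibroblast genes (2 by DESeq2, 0 by limma) and 1 endothelial gene (0 by DESeq2 and limma). On the higher side were 1 macrophage, dendritic and Langerhans cell gene and 1 fibroblast gene. DESeq2 called 1 fibroblast gene higher, Col5a1 (adjusted p = 0.0474), and limma none. Of 15 fibroblast genes 14 had a negative log2 fold change (median -0.82), as had 10 of 10 endothelial genes (median -0.81) and 17 of 18 macrophage, dendritic and Langerhans cell genes (median -1.04). The fibroblast sum was 1289 and 745 TPM in CCR6+ ILCs and 1414 and 2194 TPM in Sca1+ ILCs, and the endothelial sum was 248 and 117 TPM in CCR6+ ILCs and 369.9 and 336 TPM in Sca1+ ILCs. Sca1+ replicate 2 was the highest for fibroblast and macrophage genes and CCR6+ replicate 2 the lowest for fibroblast and endothelial genes. The keratinocyte sum differed little, with 3020 and 2590 TPM in CCR6+ ILCs and 2955 and 2867 TPM in Sca1+ ILCs. Pmel, a pigment cell gene, was at 1.30 and 0.04 TPM in the CCR6+ libraries and at 37.8 and 0.06 TPM in the Sca1+ libraries, so that it was high in Sca1+ replicate 1 alone. The fibroblast, endothelial and mast cell sums lay lower in CCR6+ ILCs, as did the 56 genes called lower, and their part in those calls was not tested.

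**Figure D4:**
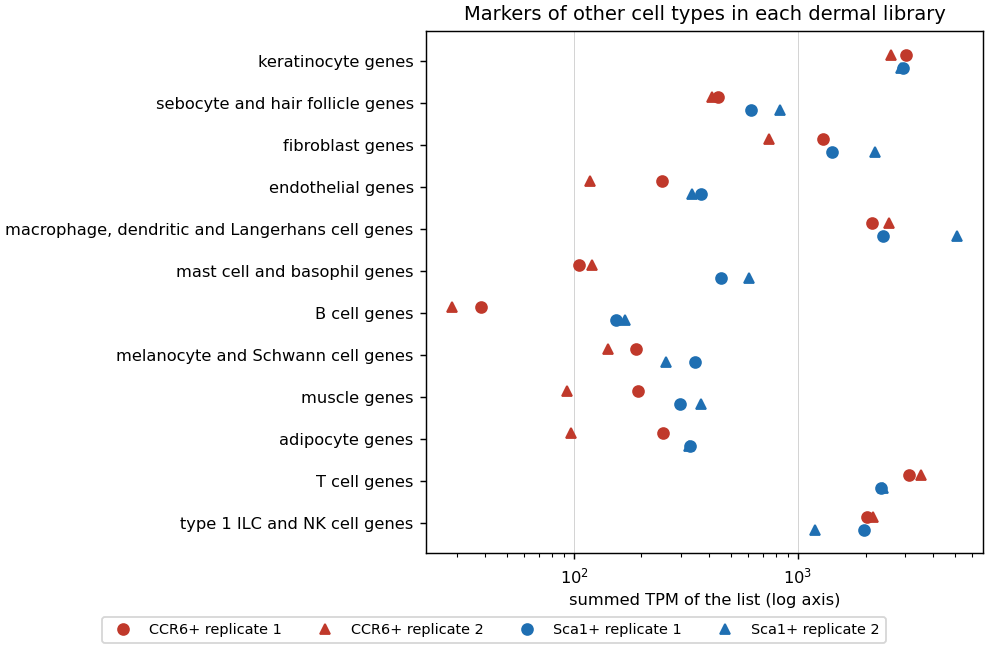
Summed TPM of marker lists of other cell types in each dermal library, on a log axis. Red marks are CCR6+ and blue marks Sca1+ libraries, circles are replicate 1 and triangles replicate 2. The sums of the T cell and the type 1 and NK cell lists are higher in both CCR6+ libraries, and those of keratinocyte and macrophage lists overlap. The sums of the other 8 lists are lower in both CCR6+ libraries, with the widest gaps for mast cell and B cell genes. A sum is weighted to abundant members. Of 21 type 1 and NK cell genes, 17 had a negative log2 fold change and 4 a positive one. Of 7 measured B cell genes, only Ighm was negative and 3 were positive.

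Chemokine receptors had no call by edgeR among 17 measured genes, with a median log2 fold change of 0.71. At an unadjusted p under 0.05, 7 were higher and 2 lower, and DESeq2 called Cx3cr1 and Cxcr4 higher and Ccr2 lower (adjusted p of 0.012 to 0.0254). Limma on log2(TPM + 1) called Cx3cr1 higher (0.0132) and Ccr2 lower (0.0375). In other settings edgeR called 1 higher and 1 lower in the 4 dermal libraries alone, 6 higher and 2 lower with no filter beyond 1 count, 1 higher without CCR6+ replicate 2 or without subcutaneous replicate 2, and 1 lower without epidermal replicate 2. Ccr8 was the most abundant, at 2651 and 3059 TPM in CCR6+ ILCs and 2514 and 2541 TPM in Sca1+ ILCs. Ccr7, which guides cells to lymph nodes, was at 303 and 336 TPM in CCR6+ ILCs and 56.7 and 90.6 TPM in Sca1+ ILCs (edgeR adjusted p = 0.435). Cx3cr1 was at 30.9 and 38.8 TPM in CCR6+ ILCs and 0.44 and 3.33 TPM in Sca1+ ILCs (0.146). In the opposite direction Ccr2, the receptor for monocyte attractants, was at 11.2 and 11.4 TPM in CCR6+ ILCs and 98.5 and 164 TPM in Sca1+ ILCs (0.125). Among adhesion genes Itgae, the αE integrin subunit that binds E-cadherin on epithelium, was at 368 and 474 TPM in CCR6+ ILCs and 92.01 and 93.8 TPM in Sca1+ ILCs without a call (log2 fold change 2.18 ± 1.28, edgeR adjusted p = 0.564). Itgae, Ccr6 and Ccr7 were separated between the populations, but each had an SE of at least 0.91.

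Broad cell state lists had no call by edgeR in the fit of all 10 libraries. At an unadjusted p under 0.05, 4 cell cycle genes and 7 glycolysis genes were higher, and 1 glycolysis gene was lower. DESeq2 called 1 and 4 genes of the cell cycle and glycolysis lists higher, and limma called none in either list. With no filter beyond 1 count edgeR called 2 genes higher in each, and without Sca1+ replicate 1 it called 1 cell cycle gene higher. Cell cycle genes had a positive log2 fold change in 24 of 26 cases and a median of 0.67. Both CCR6+ libraries exceeded both Sca1+ libraries for 17 of the 26, against 18.3% of all genes tested. The summed level of cell cycle genes was 773 and 929 TPM in CCR6+ ILCs and 647 and 516 TPM in Sca1+ ILCs. Glycolysis and hypoxia genes were positive in 18 of 22 cases with a median of 0.44, although Ldha, the most abundant, was at 2764 and 3537 TPM in CCR6+ ILCs and 3827 and 4079 TPM in Sca1+ ILCs. Interferon response genes were negative in 21 of 27 cases with a median of -0.59, and immediate early and heat shock genes in 18 of 26 cases with a median of -0.28. NF-κB genes had a median of -0.26 and cholesterol synthesis genes one of 0.13. Bcl2a1d (NF-κB list) was called higher by DESeq2 (adjusted p = 0.000381) and by limma on log2(TPM + 0.1) and log2(TPM + 1) (0.025 and 0.0189). DESeq2 also called Bcl2a1b and Insig1 (cholesterol list) higher and Birc3, Rsad2 (interferon list) and Myc (immediate early list) lower. With no filter beyond 1 count edgeR called 3 NF-κB genes higher and 1 lower. It called 1 higher with the stricter filter and 2 without subcutaneous replicate 2. Over all genes tested 7590 were positive and 8225 negative.

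Promoter sequences were read from RefSeq on GRCm38.p6, 250 bases before to 50 bases after the gene start. Windows were found for 39 of the 48 genes called higher, with 50 windows, and for 41 of the 56 called lower, with 53. The AP-1 motif TGANTCA on either strand lay in 9 windows of genes called higher (18%, 7 genes) and in 2 windows of genes called lower (3.77%), and 5.72% of the windows of all genes tested held it. The GATA motif AGATAA lay in 2 windows of genes called higher (4%) and in 6 of genes called lower (11.3%, 4 genes), against 7.09% of the windows of genes tested. AGGTCA, the core motif of nuclear receptors, lay in 22% of windows of genes called higher and 11.3% of those called lower, against 12.8%. Windows of 1 gene can overlap, and none of these shares was tested. The windows of Myl12a and Tmem154 (AP-1 motif in capitals, genes called higher) and of Cpa3 (GATA motif in capitals, called lower) are shown as examples of windows with a match, picked after the search. The matches start at -137, -45 and -46 from the gene start.
Myl12a, chr17:71002484-71002783, minus strand: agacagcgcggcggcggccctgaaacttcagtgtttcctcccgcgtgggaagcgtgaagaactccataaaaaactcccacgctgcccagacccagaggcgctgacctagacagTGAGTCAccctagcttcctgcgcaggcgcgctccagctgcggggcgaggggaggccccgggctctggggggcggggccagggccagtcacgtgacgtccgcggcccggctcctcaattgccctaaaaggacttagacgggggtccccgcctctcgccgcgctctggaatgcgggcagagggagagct
Tmem154, chr3:84665942-84666241, plus strand: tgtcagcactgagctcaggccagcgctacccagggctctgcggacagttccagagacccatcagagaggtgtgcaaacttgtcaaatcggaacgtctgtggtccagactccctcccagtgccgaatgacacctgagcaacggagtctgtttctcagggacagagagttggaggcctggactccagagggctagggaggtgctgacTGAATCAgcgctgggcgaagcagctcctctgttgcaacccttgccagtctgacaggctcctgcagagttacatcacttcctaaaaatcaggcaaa
Cpa3, chr3:20242132-20242431, minus strand: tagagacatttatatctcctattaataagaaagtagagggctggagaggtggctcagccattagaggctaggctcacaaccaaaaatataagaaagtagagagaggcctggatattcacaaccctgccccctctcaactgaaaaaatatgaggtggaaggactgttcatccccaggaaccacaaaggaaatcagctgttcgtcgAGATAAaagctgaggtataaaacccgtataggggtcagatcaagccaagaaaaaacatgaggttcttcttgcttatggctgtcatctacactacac
Tmem154, a transmembrane protein gene, was at 62.2 and 87.1 TPM in CCR6+ ILCs and 16.6 and 15.2 TPM in Sca1+ ILCs (log2 fold change 2.22 ± 0.22, edgeR adjusted p = 0.00228). Of the genes of AP-1 subunits, Fos was at 1256 and 1395 TPM in CCR6+ ILCs and 1445 and 1673 TPM in Sca1+ ILCs, and Junb was at 2261 and 3243 TPM in CCR6+ ILCs and 2237 and 2453 TPM in Sca1+ ILCs. Neither was called (edgeR adjusted p = 0.877 and 0.912). Fos and Junb were named for their high level among immediate early genes, and other AP-1 subunit genes are not given here.

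The dermal difference was set beside that between epidermal and subcutaneous ILCs, which shares no library with it. Both came from the same fit, in which a gene's spread is estimated from all 10 libraries. A gene's calls in the dermis and between the layers are thus not independent. Between these layers 3268 genes were called, or 20.2%, with 6.87% higher and 13.3% lower in epidermal ILCs. Of the 48 genes called higher in dermal CCR6+ ILCs, 43 were also higher in epidermal than in subcutaneous ILCs, 36 of them called, and of the 56 called lower, 55 were also lower in epidermal ILCs, 53 of them called. The 98 genes of like direction made up 94.2% of the 104, and over all genes tested 61% had the same direction. The median log2 fold change of the genes called lower was -2.73 in the dermis and -4.07 between the layers, and that of the genes called higher was 2.74 in the dermis and 2.26 between the layers. Since the genes were chosen by their dermal call, the dermal values are drawn towards large differences.

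A test of the difference between both differences called 775 genes of 16208 (4.78%, with 3.73% positive and 1.06% negative as dermal minus layers), and 36 of the 104. Without dermal Sca1+ replicate 1 the positive calls numbered 378, against 604 with all libraries. Among genes called lower, 19 differed more between the layers than in the dermis and 2 more in the dermis. Among genes called higher, 11 differed more in the dermis and 4 more between the layers. Klrg1, for instance, averaged 0.68 ± 0.19 TPM in epidermal ILCs and 819.5 ± 159.9 TPM in subcutaneous ILCs (SD, n = 3 each), a log2 fold change of -10.38, against -5.36 in the dermis (edgeR adjusted p of the difference 0.00028). Susd2, a sushi domain protein gene and 1 of those 4, was at 309 and 319.5 TPM in CCR6+ ILCs and 84.5 and 70.5 TPM in Sca1+ ILCs, while it averaged 438 ± 77.7 TPM in epidermal ILCs and 7.15 ± 0.89 TPM in subcutaneous ILCs (edgeR adjusted p of the difference 0.00011).

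A group of 6 genes called in the dermis had the opposite sign between the layers, with the difference of both differences called, and were picked out after their values were seen. Only Clec12a and Tnfsf8 were themselves called between the layers (edgeR adjusted p = 0.0141 and 0.0403). The layer log2 fold changes of Kcnk1 and Cblc were -0.12 ± 0.32 and 0.43 ± 0.73, near no change. In Ctla4, epidermal ILCs were at 5.16 to 21.3 TPM and subcutaneous ILCs at 10.97 to 23.4 TPM, so that the dermal CCR6+ libraries stood above all 8 others. The log2 fold change of epidermal over subcutaneous ILCs was -0.90, and it differed from the dermal 3.48 with an edgeR adjusted p of 0.00566. In Tnfsf8, epidermal ILCs were at 7.13 to 11.01 TPM and subcutaneous ILCs at 10.97 to 20.8 TPM, and again both dermal CCR6+ libraries were the highest of all 10 (edgeR adjusted p of the difference 0.00286). Clec12a, an inhibitory lectin receptor of myeloid cells, was at 2.13 and 4.74 TPM in CCR6+ ILCs and 0 and 0.05 TPM in Sca1+ ILCs, and averaged 2.14 ± 0.79 TPM in epidermal ILCs and 12.7 ± 6.33 TPM in subcutaneous ILCs (0.0021). Its dermal ratio was 179, from 201 counts in CCR6+ ILCs and 1 in Sca1+ ILCs, with a 95% exact interval of 31.8 to 7110. Cul7, a ubiquitin ligase scaffold, was at 5.21 and 2.95 TPM in CCR6+ ILCs and 0.05 and 0.35 TPM in Sca1+ ILCs (0.00689). Kcnk1, a potassium channel, was at 14.8 and 15.4 TPM in CCR6+ ILCs and 2.19 and 3.39 TPM in Sca1+ ILCs (0.0181). Cblc, a ubiquitin ligase of the Cbl family, was listed at 0 in CCR6+ ILCs and at 1.87 and 2.24 TPM in Sca1+ ILCs, at least 23.2-fold lower (0.0148). The difference stayed called without any one library for Ctla4, Tnfsf8, Clec12a and Cul7. It was lost for Kcnk1 without CCR6+ replicate 1 (edgeR adjusted p = 0.0542) or Sca1+ replicate 1 (0.0872), and for Cblc without CCR6+ replicate 1 (0.0513). The dermal call itself was lost for Clec12a without CCR6+ replicate 2 or either Sca1+ library (0.0666 to 0.112) and for Kcnk1 without any one dermal library or subcutaneous replicate 3 (0.0546 to 0.16). For Cul7 it was kept only without epidermal replicate 1 or 2, and for Cblc only without epidermal replicate 1, with edgeR adjusted p of 0.0652 to 0.155 and 0.0692 to 0.23 in the other fits.

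**Figure D5:**
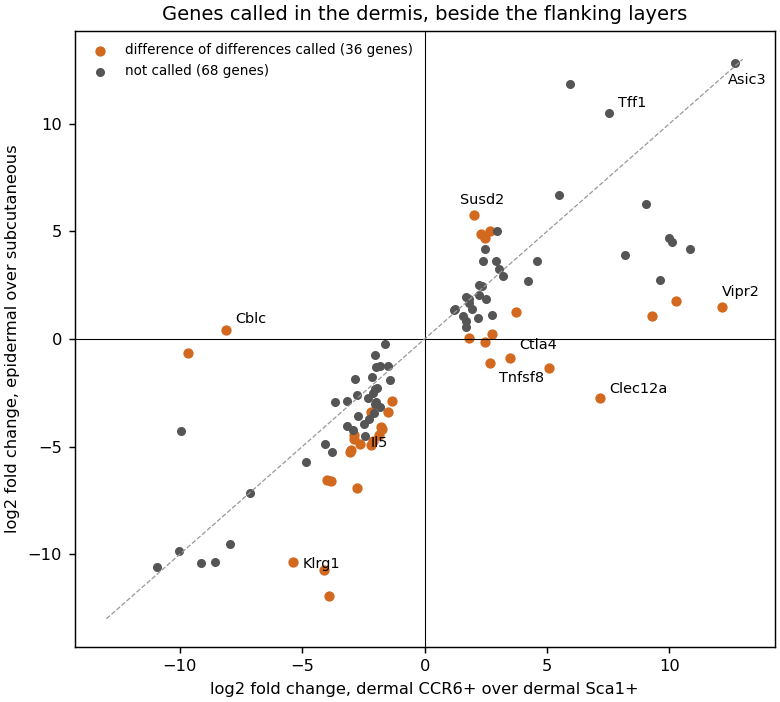
Log2 fold change of dermal CCR6+ over dermal Sca1+ ILCs (horizontal axis) and of epidermal over subcutaneous ILCs (vertical axis) for the 104 genes called in the dermis. Orange points are the 36 genes for which the difference between both fold changes was called, the dashed line marks equal values, and 98 of the 104 points lie on the same side of 0 on both axes.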

How the data were processed

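Bulk RNA-seq libraries of sorted ILCs were analysed, 2 dermal CCR6+, 2 dermal Sca1+, 3 epidermal and 3 subcutaneous. Per the submitters' processing notes, reads were trimmed with Trimmomatic, aligned to mm10 with STAR and quantified with RSEM, with no versions given. The authors deposited per gene the expected counts, which need not be whole because reads shared between genes are split, and TPM, which are scaled per library and gene length and used here for levels. Symbols and coordinates were looked up here in GENCODE M21 (GRCm38, the assembly of mm10), which held 47224 of the 47643 gene IDs, 39106 of them in the same version. Expected counts were rounded and tested with edgeR 4.0.16 in R 4.3.3 (quasi-likelihood test, TMM, filterByExpr with a minimum count of 10, 16208 genes), with all 4 groups in 1 fit and Benjamini-Hochberg adjustment over all genes. The SE is the log2 fold change divided by the square root of F, so it follows from the test. Alternatives used DESeq2 1.42.0 and limma 3.58.1.

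Of genes simulated with a 4-fold change, 57 of 100 were called in the dermal comparison, and of those with a 16-fold change 87 of 100, with 3 false calls among 15532 genes. The changed genes were drawn only from those above a minimum mean level, so genes near 0 were not covered. All groups otherwise had equal means, and the spread was taken from these data without libraries that vary together. Genes were named by rule. The first were drawn from called genes with at least 10 TPM in the higher population and groups that do not overlap. In each direction these were the 10 largest folds among genes with more than 3 counts in the lower population. To them came the 3 highest levels of the rest, without that limit on counts. Further ones were called members and the 4 highest of each list, and 4 genes a direction for the difference between the layers and the dermis. Any type 1, 2 or 3 gene and any transcription factor of the lists could be named as well. Members and lists were chosen with earlier results of these data known. Thy1, Cd3e, Cd28, Il1r1, Il21r, Cx3cr1, Ccr2, Itgae, Tmem154, Susd2 and Pmel stand outside the rule and were chosen after their values were seen, as were the genes said to be so in the text. The results of 2 genes are not reported here. Total counts limit genes near 0.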

Additional observations from a re-analysis of the deposited data

Results flagged for a closer look

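A set of 14 genes was marked because the difference of epidermal over subcutaneous ILCs differed from that of dermal CCR6+ over dermal Sca1+ ILCs, by edgeR's test of the difference of both log2 fold changes (dermal minus layers). In 6 of them the dermal difference was itself called. The difference was 4.38 for Ctla4 (edgeR adjusted p = 0.00566), 3.75 for Tnfsf8 (0.00286), 9.91 for Clec12a (0.0021), 6.44 for Cul7 (0.00689), 2.58 for Kcnk1 (0.0181) and -8.55 for Cblc (0.0148). Clec12a and Cblc have at most 1 count in 1 dermal population, so their fitted values depend on the prior count.

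In the remaining 8 genes all 4 dermal libraries were at or near 0, and the fitted value depends on the prior count and is no bound. It depends as well on the few counts of single dermal libraries. Without CCR6+ replicate 1 it was 11.13 for Ccr1 and 11.77 for Krt7, and without Sca1+ replicate 1 it was -13.5 for Kprp and -9.09 for Lypd5. With all libraries it was 19.10 for Ccr1 (edgeR adjusted p = 0.005), 17.11 for Krt7 (0.00325), 16.30 for Aldh1a2 (0.0177) and 15.39 for Slc5a5 (0.0307), which were low in epidermal and higher in subcutaneous ILCs. It was -19.50 for Kprp (0.0146), -16.66 for Alox12b (0.0102), -15.82 for Lypd5 (0.00966) and -15.52 for Lipm (0.0223), which were high in epidermal and lower in subcutaneous ILCs. Ccr1, for instance, was at 1.8 and 0 TPM in dermal CCR6+ ILCs and 0 and 0 TPM in dermal Sca1+ ILCs, and averaged 0.01 ± 0.01 TPM in epidermal and 26.1 ± 12.3 TPM in subcutaneous ILCs (SD, n = 3 each). Without CCR6+ replicate 1 the edgeR adjusted p was 1 for Ccr1, Krt7 and Aldh1a2, and without Sca1+ replicate 1 it was 1 for Kprp, Alox12b and Lypd5. The call of Lipm and that of Aldh1a2 was lost in 4 and that of Slc5a5 in 5 of the 10 fits without 1 library (edgeR adjusted p of up to 1).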

How the results depend on the processing

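The fit of all 10 libraries called 48 genes higher and 56 lower in dermal CCR6+ than in dermal Sca1+ ILCs, and no called value reversed under any alternative run. The counts were 21 and 26 in a fit of the 4 dermal libraries alone, 261 and 296 with DESeq2, and 264 and 383 with no filter beyond 1 count. Limma on log2(TPM + 0.1) and log2(TPM + 1) called 89 and 90 genes lower. The title's replicate number as a block gave 30 and 34, and the same replicate block in the 4 dermal libraries alone gave 0 and 0, with 1284 genes at an unadjusted p under 0.05. Deviations of CCR6+ replicate 1 and Sca1+ replicate 1 from their group means had a correlation of 0.014 across genes. With 2 libraries a group, this cannot show whether libraries of the same number share a mouse, a sort or a run. Adjusting instead for runs of the deposited sample numbers gave 47 genes higher and 50 lower, and 79 of the 104 genes kept their call. Leaving out 1 library gave 15 to 62 genes higher and 18 to 117 lower; a population left with 1 library was assumed to vary like the others. For the difference between the dermal and the layer difference, DESeq2 called 1184 genes higher and 434 lower, the fit with no filter 1337 and 486, limma 318 and 341 lower on its 2 scales, and fits without 1 library 378 to 747 higher and 120 to 221 lower. The share of called genes with the same direction between the layers was 85.6% with DESeq2, 85.5% without a filter, 98.4% with the block and 85.8% to 100% without 1 library. Of the 104 genes, 104 were also called by DESeq2 and with RLE size factors, 88 and 82 by limma, 61 with the title block, 35 in the dermal libraries alone, and 31 without CCR6+ replicate 2. The causes of these shifts were not tested, beyond the fewer samples of the smaller fits. With 2 libraries a group, an exact permutation test cannot give a two-sided p under 0.333.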
